A study of Mus musculus with 4 samples.

Results

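The genes described here encode 7 ADAM proteases (Adam8, Adam9, Adam10, Adam12, Adam15, Adam17 and Adam19) and 3 ADAMTS proteases (Adamts1, Adamts2 and Adamts5), chosen by symbol. On the array used, 19 probe sets of the 22690 named exactly 1 of these genes, and they covered 9 of the 10 genes among 12393 genes in all. Adamts2 was named by no probe set and is not analysed here. Values were read from 4 arrays of mouse mammary macrophages, sorted as YFP-positive cells from mice that express YFP in macrophages.

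Each of the 4 groups was 1 RNA sample on 1 array. Tumor macrophages came from early-stage mammary tumors induced by PyMT, the polyoma middle T oncogene, and were either Ets2-deficient, with 2 copies of Ets2 deleted, or Ets2-expressing, with the title calling the control wild type and the source label giving 1 copy of Ets2. Remodeling macrophages came from mammary glands without tumor and were either Ets2-deficient, again with 2 copies deleted, or Ets2-expressing and labelled wild type. Ets2 encodes an ETS-type transcription factor. The promoter that drives the deletion or the YFP, the age of the mice and the number of mice per sample are not given in the sources used here. The 2-by-2 layout lets each protease be set against the Ets2 label in either setting, and against the setting with either label. The labels give 1 copy of Ets2 for the tumor control and state no copy number for the remodeling control. Setting and a possible difference in Ets2 copies therefore cannot be told apart between the Ets2-expressing arrays, or between the Ets2 differences of the 2 settings.

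ADAMs are membrane proteases with a metalloprotease and a disintegrin domain. Several of them cut the outer part off other membrane proteins, a step called shedding, which frees cytokines and growth factors such as TNF and HB-EGF and cuts down receptors such as Notch and the TNF receptors. ADAMTS proteases lack the membrane anchor, carry thrombospondin type 1 repeats and act in the extracellular matrix, where they cut proteoglycans such as versican or trim procollagens. In macrophages ADAM10 and ADAM17 are the main shedding enzymes, whereas ADAMTS enzymes are typically made by fibroblasts, smooth muscle and other stromal cells.

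In this account a probe set is bright on an array where its log2 value lies at or above the median of that array over all probe sets, dim where it lies below, and at background where it lies below the 25th percentile. The medians were 6.30 (tumor, Ets2-deficient), 6.22 (tumor, Ets2-expressing), 5.98 (remodeling, Ets2-deficient) and 6.17 (remodeling, Ets2-expressing), and the 25th percentiles lay between 4.27 and 4.32. A gene is represented by its probe set with the highest mean and counts as past 2-fold where the log2 difference is at least 1 in size and the brighter array is bright. With 1 array per group there was no replicate, and no test was run, so precision is limited by the number of arrays. The only error that could be measured was the standard deviation among a gene's bright probe sets. Its median was 0.219 in the tumor Ets2 comparison, 0.157 in the remodeling Ets2 comparison, 0.253 between tumor and remodeling on the Ets2-expressing arrays and 0.176 on the Ets2-deficient arrays, and the pooled values were 0.338, 0.278, 0.410 and 0.320. The Ets2 probe set read 12.67 and 12.77 on the tumor arrays (Ets2-deficient and Ets2-expressing) and 12.97 and 13.24 on the remodeling arrays in the same order, so it was high on all 4. The deleted exons are not given in the labels, so this probe set may lie outside them and does not check the labels. Of 11 macrophage markers, 10 were bright on every array, Itgam being the dim one (4.99 to 5.99). Actb signal at the 3' control probe set exceeded that at the 5' one, a gap that grows with shorter or more degraded template, by 3.54 and 3.30 on the tumor arrays (Ets2-deficient and Ets2-expressing) and 2.96 and 2.72 on the remodeling arrays in the same order.

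The protease genes fell into 3 patterns. Adam9, Adam10, Adam15 and Adam17 were bright and nearly level on all 4 arrays by their main probe sets. Adam8 and Adam19 were bright everywhere but lower on both tumor arrays. Adam12, Adamts1 and Adamts5 were highest on the remodeling Ets2-expressing array and lower on the other 3. By comparison, 0 of 9 genes passed 2-fold between the tumor arrays (Ets2-deficient minus Ets2-expressing), where 2.99% of 7225 bright genes did (2.23% higher and 0.761% lower), and 6 of the 9 were bright enough to count. Between the remodeling arrays 3 of 9 were lower past 2-fold (Adam12, Adamts1 and Adamts5) and none higher, where 5.17% of all bright genes were lower, 1.31% higher and 6.48% passed either way. Tumor minus remodeling, 4 of 9 were lower on the Ets2-expressing arrays (the same 3 and Adam19), where 5.2% of bright genes were lower and 11.4% passed either way. On the Ets2-deficient arrays 1 of 9 was lower (Adam19), where 1.61% of bright genes were lower and 9.22% passed either way. The median difference of the 9 genes was 0 in the tumor and -0.008 in the remodeling Ets2 comparison, beside 0 and 0.037 for all genes. For tumor minus remodeling it was -0.774 with Ets2-expressing and -0.090 with Ets2-deficient arrays, beside 0.075 and 0.012. The comparisons share arrays: the remodeling Ets2-expressing array stands in both that gave 3 or more genes, so those counts are not separate evidence. Adamts1 and Adamts5 passed the brightness filter only through that array, and the genes were chosen with earlier results of these data known. The shares of all bright genes beside these counts therefore give no measure of an excess.

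**Figure D1:**
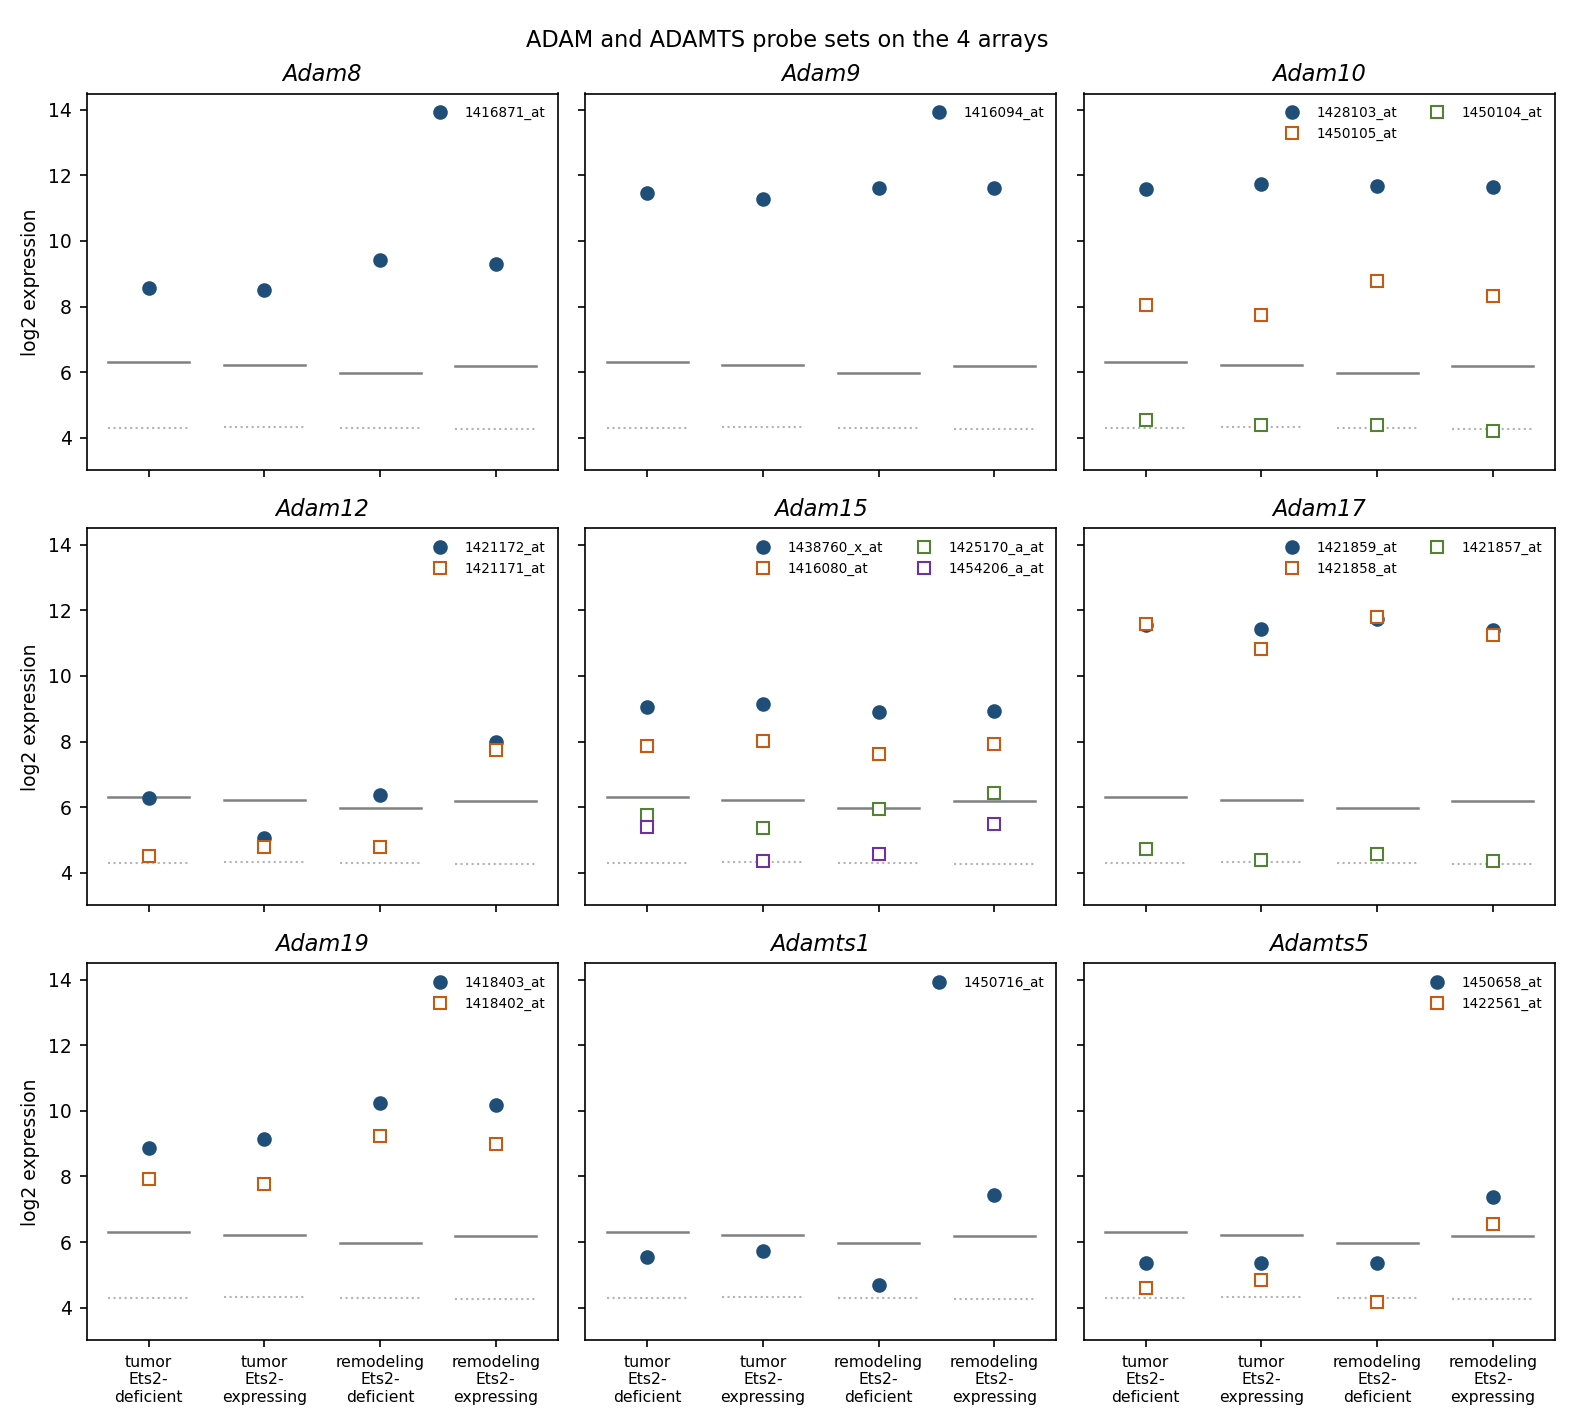
Log2 expression (y axis) of the 19 probe sets of 9 ADAM and ADAMTS genes on the 4 arrays (x axis, 1 array per group). Filled circles are the probe set with the highest mean, open squares the others; grey lines mark each array's median and dotted lines its 25th percentile. Adamts1 and Adamts5 rise above the median only on the remodeling Ets2-expressing array, at 7.44 and 7.37.

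Adam10 encodes the sheddase that cuts Notch and N-cadherin. Its main probe set (1428103_at) read 11.59 and 11.73 on the tumor arrays (Ets2-deficient and Ets2-expressing) and 11.68 and 11.65 on the remodeling arrays, so the 4 values spanned 0.144 log2. The Ets2 difference (Ets2-deficient minus Ets2-expressing) was -0.14 in tumor and 0.02 in remodeling macrophages, both smaller than the median spread between probe sets. A further bright probe set (1450105_at) gave 8.05 and 7.76 in tumor and 8.78 and 8.33 in remodeling macrophages, which puts the Ets2-deficient array higher in each pair, by 0.30 and 0.45. Tumor minus remodeling, this probe set differed by more, -0.57 (Ets2-expressing) and -0.72 (Ets2-deficient), still short of 2-fold. The last probe set (1450104_at) was dim on all arrays, at 4.20 to 4.55.

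Adam17 encodes TACE, the enzyme that releases TNF from the cell surface. Its probe sets 1421859_at and 1421858_at were bright on every array. The first read 11.55 and 11.43 in tumor macrophages (Ets2-deficient and Ets2-expressing) and 11.75 and 11.40 in remodeling macrophages. The other read 11.59 and 10.82 in tumor and 11.79 and 11.25 in remodeling macrophages. In both settings and by both probe sets the Ets2-deficient array was the higher one, by 0.13 and 0.78 in tumor and by 0.35 and 0.54 in remodeling macrophages, short of 2-fold. The standard deviation of 0.462 between the probe sets in tumor exceeded the pooled 0.338, and centring the arrays on macrophage markers turned the tumor difference of 1421859_at to -0.08. A dim probe set (1421857_at, 4.35 to 4.73) showed 0.34 and 0.21.

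Adam9 encodes a widely expressed ADAM that can shed HB-EGF, and Adam15 encodes metargidin, which binds integrins through its disintegrin domain. Adam9 had 1 probe set, with 11.47 and 11.29 in tumor macrophages (Ets2-deficient and Ets2-expressing) and 11.61 on both remodeling arrays. The tumor Ets2 difference of 0.18 lay below the median spread between probe sets. Adam15 was measured by 4 probe sets. The brightest (1438760_x_at) read 9.05 and 9.15 in tumor and 8.89 and 8.92 in remodeling macrophages, and the next (1416080_at) 7.85 and 8.01 in tumor and 7.61 and 7.91 in remodeling macrophages, so by both it was nearly level. The remaining probe sets went another way. Probe set 1454206_a_at was dim on all arrays, at 5.39 and 4.36 in tumor and 4.58 and 5.49 in remodeling macrophages, and its Ets2 differences were 1.03 in tumor and -0.92 in remodeling. Probe set 1425170_a_at, bright on the remodeling Ets2-expressing array alone (6.44), showed 0.40 and -0.49. Which transcripts of Adam15 each probe set matches is not given in the sources used here.

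The promoters of Adam17 and Adam15 are shown because each holds CCGGAA, a core bound by ETS factors, the family of Ets2. Neither gene passed 2-fold with the Ets2 label by its main probe set. The sequences, from RefSeq on build GRCm38.p6, run 5' to 3' on the gene's strand over 250 bases before and 50 bases after a transcript start. Capitals mark matches, on either strand, to the ETS cores CCGGAA and AGGAAG or to the AP-1 motif TGANTCA. Adam17 lies on chr12:21373583-21373882 and Adam15 on chr3:89349979-89350278, both on the minus strand.
Adam17: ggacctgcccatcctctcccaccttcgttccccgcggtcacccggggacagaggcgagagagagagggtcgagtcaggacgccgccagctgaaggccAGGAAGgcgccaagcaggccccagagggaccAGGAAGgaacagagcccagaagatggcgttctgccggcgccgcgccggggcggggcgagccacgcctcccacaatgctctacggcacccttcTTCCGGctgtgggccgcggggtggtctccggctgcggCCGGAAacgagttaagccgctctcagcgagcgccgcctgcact
Adam15: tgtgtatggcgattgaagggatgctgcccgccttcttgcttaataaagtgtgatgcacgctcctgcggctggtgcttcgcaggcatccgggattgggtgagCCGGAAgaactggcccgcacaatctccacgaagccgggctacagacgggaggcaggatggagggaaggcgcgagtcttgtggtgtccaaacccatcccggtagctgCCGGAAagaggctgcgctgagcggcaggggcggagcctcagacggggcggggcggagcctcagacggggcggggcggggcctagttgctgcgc

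Adam17 held CCGGAA in 2 places, 30 bases before the start on the opposite strand and from base 8 of the transcript, and AGGAAG 153 and 122 bases before the start. Adam15 held CCGGAA 149 and 43 bases before the start. Of 32851 promoter windows of 300 bases, 14.9% held CCGGAA, 35.4% AGGAAG, 45.2% at least 1 of the 2 cores and 7.81% TGANTCA. The table matched 7 of the 10 protease genes with 9 windows, of which 4 held an ETS core and 1 the AP-1 motif. Those 4 belonged to Adam10, Adam15, Adam17 and Adam19, none of which passed 2-fold with the Ets2 label by its main probe set. Adam9, Adam12 and Adamts5 had no window. A match describes letters in a window and says nothing of binding.

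Adam8 and Adam19 were lower in tumor than in remodeling macrophages with either Ets2 label, and their Ets2 differences were small. Adam8 encodes a leukocyte ADAM of myeloid cells, and Adam19 encodes meltrin beta, known for cutting neuregulin. Adam19 (1418403_at) read 8.88 and 9.13 in tumor macrophages (Ets2-deficient and Ets2-expressing) and 10.26 and 10.17 in remodeling macrophages, so both tumor arrays lay below both remodeling arrays. Its other probe set (1418402_at) had the same order between settings, with 7.94 and 7.76 in tumor and 9.25 and 8.99 in remodeling macrophages. Tumor minus remodeling, the 2 probe sets differed by -1.04 and -1.22 on the Ets2-expressing arrays and by -1.38 and -1.31 on the Ets2-deficient arrays, and their standard deviations of 0.127 and 0.0460 lay below the median spread. The Ets2-expressing value of -1.04 lies just past 2-fold, and centring on macrophage markers made it -0.82, which ends the call. The Ets2 differences of Adam19 were -0.25 and 0.17 in tumor and 0.08 and 0.26 in remodeling macrophages by the 2 probe sets.

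Adam8 (1 probe set) read 8.55 and 8.52 in tumor macrophages (Ets2-deficient and Ets2-expressing) and 9.42 and 9.29 in remodeling macrophages. The tumor arrays lay below the remodeling arrays for each label, by 0.77 (Ets2-expressing) and 0.87 (Ets2-deficient) in size. Both are short of 2-fold. The main Adam19 probe set lay just inside the threshold on the Ets2-expressing arrays (-1.04) and further inside on the Ets2-deficient arrays (-1.38). Centring on array medians or on hybridization controls moved the Ets2-deficient value of Adam8 to -1.19 and -1.09, past 2-fold. The Ets2 differences of Adam8 were 0.03 in tumor and 0.13 in remodeling macrophages. In sorted bulk samples, fewer cells of a type and less RNA per cell cannot be told apart, and this holds for every difference given here. Mammary epithelial markers moved with the setting as well: 8 of 8 were higher past 2-fold in tumor than in remodeling macrophages with either label. Of all bright genes 6.18% (Ets2-expressing) and 7.61% (Ets2-deficient) were higher. The log2 of the summed epithelial level was 13.4 and 12.2 on the tumor arrays (Ets2-deficient and Ets2-expressing) against 8.02 and 8.87 on the remodeling arrays. Macrophage markers were nearly level (15.6, 15.7, 15.7 and 15.8 in the same order). The 3' minus 5' gap of Gapdh was 2.27 and 2.45 on the tumor arrays against 1.80 and 1.61 on the remodeling arrays, and that of Actb, given above, was also larger on both tumor arrays. The part of these markers and of RNA quality in the Adam8 and Adam19 difference was not tested.

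The Adam19 gene has 3 listed starts, and the window of the middle one is printed because it is the only one of the 9 with the AP-1 motif (capitals, TGAGTCA, 131 bases before the start; chr11:46055734-46056033, plus strand, GRCm38.p6, RefSeq).
Adam19: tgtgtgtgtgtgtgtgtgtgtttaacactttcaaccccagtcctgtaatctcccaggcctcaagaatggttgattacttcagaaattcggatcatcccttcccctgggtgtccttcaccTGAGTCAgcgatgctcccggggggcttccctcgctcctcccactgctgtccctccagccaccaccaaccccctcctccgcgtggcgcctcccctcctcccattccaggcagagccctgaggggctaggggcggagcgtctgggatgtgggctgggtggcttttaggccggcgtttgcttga

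Adam12 encodes meltrin alpha, an ADAM typical of mesenchymal and muscle precursor cells that can shed HB-EGF. Its main probe set (1421172_at) read 6.27 and 5.05 in tumor macrophages (Ets2-deficient and Ets2-expressing) and 6.36 and 7.99 in remodeling macrophages. The other probe set (1421171_at) read 4.52 and 4.79 in tumor and 4.79 and 7.76 in remodeling macrophages. By both probe sets the remodeling Ets2-expressing array was the highest. The Ets2-deficient minus Ets2-expressing difference in remodeling macrophages was -1.64 and -2.97, lower past 2-fold by both, with a standard deviation of 0.945 between them against a pooled 0.278, so the direction was shared but the size was not. In tumor macrophages the probe sets parted. The first showed 1.22 with its brighter value just under the array median of 6.30, so it did not count, and the second showed -0.27 with both values dim. Between the settings (tumor minus remodeling) both gave, on the Ets2-expressing arrays, nearly the same value, -2.94 and -2.96. On the Ets2-deficient arrays they gave -0.09 and -0.26. Markers of other cells moved in the tumor Ets2 comparison too: 3 of 7 neutrophil markers were higher past 2-fold (S100a8, 1.49, S100a9, 1.48, and Cxcr2, 1.07), with summed signals of 13.9 on the Ets2-deficient and 12.5 on the Ets2-expressing tumor array. So were 3 of 8 epithelial markers (Csn2, 3.70, Wap, 2.27, and Elf5, 1.22), where 2.23% of all bright genes were higher. Their part in the Adam12 value was not tested.

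**Figure D2:**
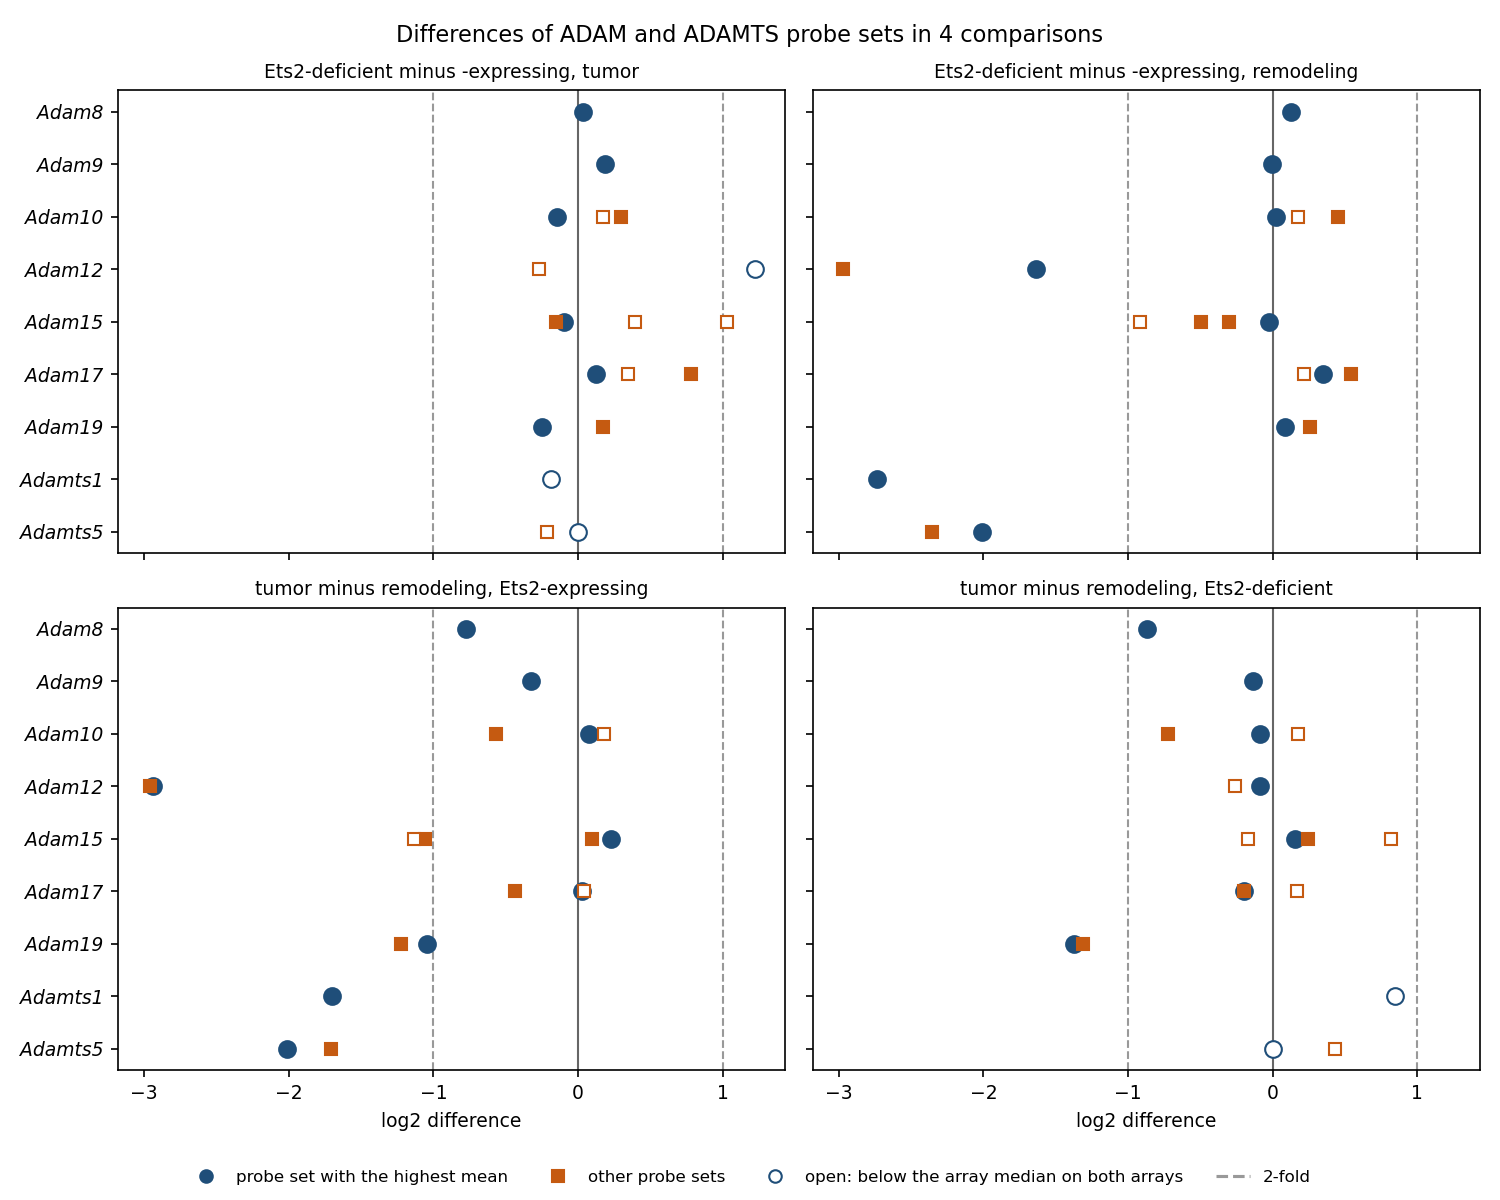
Log2 differences (x axis) of each probe set of the 9 genes (y axis) in the 4 comparisons, 1 array against 1 array. Blue circles are the probe set with the highest mean, orange squares the others, open symbols were below the median of both arrays, and dashed lines mark 2-fold. The largest differences lie in the 2 panels that use the remodeling Ets2-expressing array, down to -2.97 for Adam12.

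Adamts1 and Adamts5 were bright on 1 array of the 4. Adamts1 encodes a protease of versican and aggrecan that also restrains blood vessel growth. Its probe set read 5.55 and 5.73 in tumor macrophages (Ets2-deficient and Ets2-expressing) and 4.70 and 7.44 in remodeling macrophages. It was thus dim on 3 arrays and bright on the remodeling Ets2-expressing one. Between the remodeling arrays it was 6.65-fold lower on the Ets2-deficient one (-2.73 log2), and in tumor macrophages it differed by -0.19 with both values dim. Tumor minus remodeling, the differences were -1.70 (Ets2-expressing) and 0.84 (Ets2-deficient, both dim).

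Adamts5 encodes the main aggrecan-cutting protease of mouse cartilage. Probe set 1450658_at read 5.36 on both tumor arrays and 5.36 and 7.37 on the remodeling arrays (Ets2-deficient and Ets2-expressing). The other probe set (1422561_at) read 4.61 and 4.83 in tumor and 4.18 and 6.54 in remodeling macrophages, where 4.18 is at background. Both placed the remodeling Ets2-expressing array alone above its median. The remodeling Ets2 difference was -2.01 and -2.36, with a standard deviation of 0.245 between probe sets, below the pooled value. In tumor macrophages it was 0 and -0.22, all values dim. The first probe set carried the same number to 3 decimals on 3 arrays, which was so for 395 of the 22690 probe sets on at least 3 arrays. What makes such ties is not given in the sources used here, and sizes of differences against these dim values are not exact.

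Adamts1 and Adamts5 are next to each other on chromosome 16 in the RefSeq gene table, with no other protein-coding gene starting between them. The Adamts1 promoter is printed because the gene had the largest remodeling Ets2 difference of the 9 main probe sets (chr16:85803064-85803363, minus strand, GRCm38.p6, RefSeq). Adam12 and Adamts5, also past 2-fold there, had no window, so motifs cannot be set against the Ets2 differences. It held none of the 3 motifs, so it has no capitals, and nothing about binding follows from that for a window of 300 bases.
Adamts1: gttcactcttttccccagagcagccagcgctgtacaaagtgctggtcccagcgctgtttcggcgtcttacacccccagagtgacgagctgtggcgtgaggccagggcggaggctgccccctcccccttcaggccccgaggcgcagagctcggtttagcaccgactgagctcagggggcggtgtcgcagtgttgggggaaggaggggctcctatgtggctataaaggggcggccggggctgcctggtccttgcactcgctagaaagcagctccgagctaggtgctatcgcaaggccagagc

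With 1 array per group, whether a gene differs with the Ets2 label more in one setting than in the other has no error. As values, the tumor Ets2 difference minus the remodeling Ets2 difference was 2.55 for Adamts1, 2.01 and 2.14 for the probe sets of Adamts5 and 2.86 and 2.70 for those of Adam12. For the main probe sets of the other 6 genes it lay between -0.33 (Adam19) and 0.19 (Adam9). Among their other probe sets, Adam15 had 1.95 (1454206_a_at, dim on all arrays) and 0.889 (1425170_a_at). The first 3 genes are those past 2-fold in the remodeling Ets2 comparison, so their values here restate that difference and add no support to it.

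**Figure D3:**
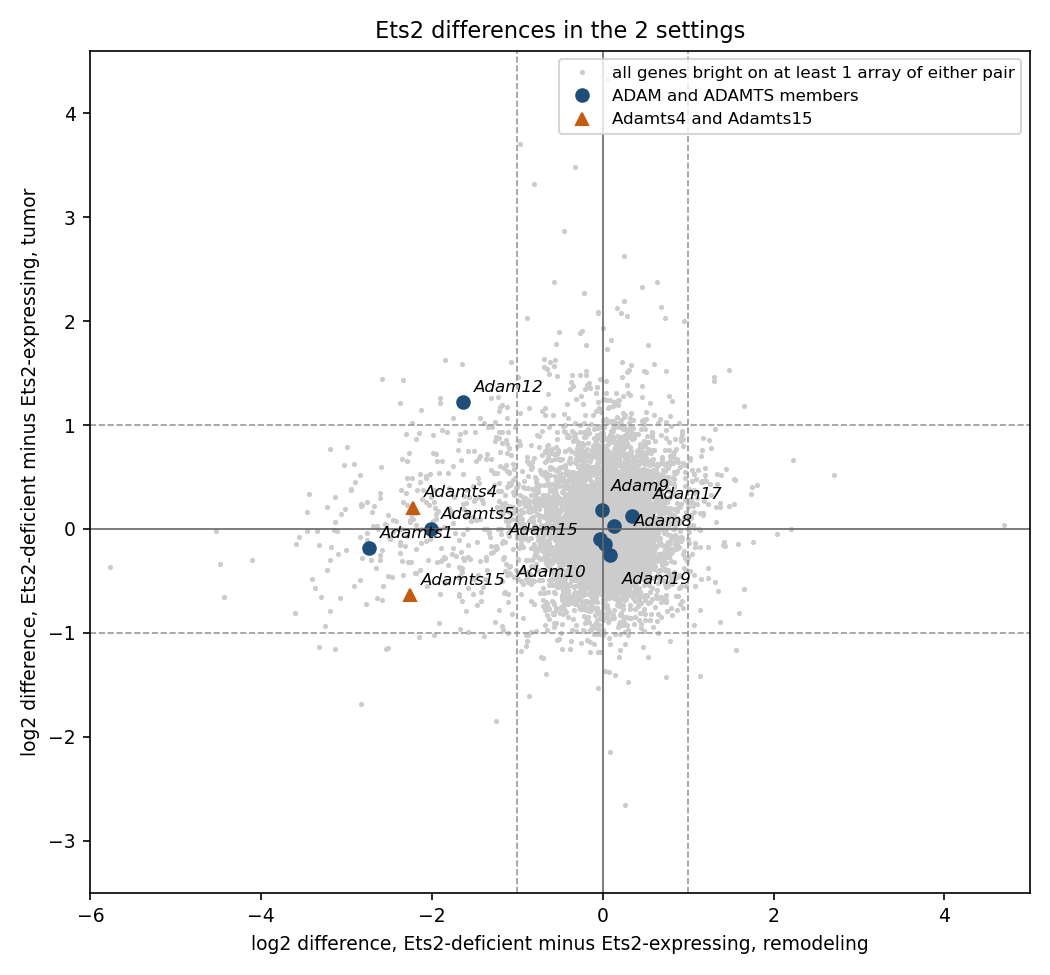
Ets2-deficient minus Ets2-expressing log2 differences in remodeling (x axis) and tumor (y axis) macrophages, each from 1 array per group. Grey points are genes bright in at least 1 of the comparisons, circles the 9 protease genes, triangles Adamts4 and Adamts15, and dashed lines 2-fold. Adamts1, Adamts5 and Adam12 lie left of -1 on the x axis, and the other 6 genes lie near the origin.

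Among 7472 other genes bright on at least 1 array, those nearest in profile were found by the distance between the 4 mean-centred log2 values, for the 4 genes whose main probe set ranged over at least 1 log2. The distance is a description over 4 arrays. For Adamts1 they were the complement inhibitor Serping1 (distance 0.112 log2), the matrix proteoglycan Ogn (0.203) and the eosinophil attractant Ccl11 (0.253). Serping1 read 8.72 and 8.90 in tumor macrophages (Ets2-deficient and Ets2-expressing) and 7.77 and 10.49 in remodeling macrophages. For Adamts5 they were the homeobox gene Meis2 (0.0605), the Wnt receptor Ror2 (0.0736) and the proenkephalin gene Penk (0.101), which like Adamts5 held 1 value on 3 arrays (5.38). Adam12 was farther from any gene, with Padi4, a citrullinating enzyme, at 0.646, the histamine-producing enzyme Hdc at 0.699 and Fxyd1 at 0.724. Adam19 was nearest to the kallikrein Klk1 (0.149), the ADAM-like decysin gene Adamdec1 (0.170) and Ints6 (0.194).

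Most other family members were dim. Of 27 further ADAM genes listed, 19 were measured, and 18 of them were dim on all 4 arrays, among them Adam28 (3.99 to 4.25), an ADAM of lymphocytes. Adamdec1, a secreted ADAM-like protease of macrophages and dendritic cells, was the exception, at 6.18 and 6.60 in tumor (Ets2-deficient and Ets2-expressing) and 7.71 on both remodeling arrays. It was lower in tumor by 1.11 (Ets2-expressing) and 1.52 log2 in size (Ets2-deficient), the same order of settings as Adam8 and Adam19. Of 21 further ADAMTS and ADAMTS-like genes, 7 were measured and 2 were bright, Adamts4 and Adamts15, both lower past 2-fold on the remodeling Ets2-deficient array. Adamts4, an aggrecanase, read 7.999 and 7.80 in tumor and 7.56 and 9.78 in remodeling macrophages, with a remodeling Ets2 difference of -2.22 and, by its other probe set, -3.25. Adamts15 read 6.66 and 7.30 in tumor and 6.48 and 8.73 in remodeling macrophages, a difference of -2.25. Both were bright on all 4 arrays and highest on the remodeling Ets2-expressing one.

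In the tumor Ets2 comparison none of 13 measured escorts and inhibitors of these proteases passed 2-fold, where 2.99% of all bright genes did. On the remodeling Ets2-deficient array 3 of the 13 were lower past 2-fold and none higher. There 11 of the 13 were bright enough to count, and 5.17% of all bright genes were lower. The 3 lower genes were among the 5 inhibitors measured, and the other inhibitors, Timp2 (-0.20) and Timp4 (0.02), were short of 2-fold. Timp3, which blocks ADAM17, ADAMTS4 and ADAMTS5, read 7.60 and 7.77 in tumor (Ets2-deficient and Ets2-expressing) and 6.81 and 9.98 in remodeling macrophages, a remodeling difference of -3.18. The membrane-anchored inhibitor Reck differed by -2.77 and Timp1 by -1.68. Tumor minus remodeling, Timp3 and Reck were lower on the Ets2-expressing arrays (-2.21 and -1.29), and Timp1 was higher on the Ets2-deficient arrays (2.30), whereas Timp4 was lower there (-1.76). Furin, which removes the inhibitory prodomain, read 11.50 to 11.90, and Rhbdf1, the iRhom that escorts ADAM17, 7.68 to 8.10. Among the tetraspanins that escort ADAM10, Tspan14 was level (8.33 to 8.50), and Tspan33 was higher in tumor than in remodeling macrophages on the Ets2-expressing arrays, by 1.23. There 6.18% of all bright genes were higher past 2-fold, and 7.61% on the Ets2-deficient arrays. Another Tspan33 probe set gave 0.81 on the Ets2-expressing arrays.

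Among 14 measured ligands that ADAMs shed, 2 were lower past 2-fold on the remodeling Ets2-deficient array, the EGF receptor ligands Hbegf and Ereg, where 5.17% of all bright genes were lower. Hbegf read 8.30 and 8.54 in tumor (Ets2-deficient and Ets2-expressing) and 8.70 and 10.47 in remodeling macrophages, a remodeling difference of -1.77, and -1.66 by its other probe set. Ereg differed by -1.90. Both were also lower in tumor than in remodeling macrophages on the Ets2-expressing arrays (-1.93 and -1.33), as was the macrophage growth factor Csf1 (-1.14). There 5.2% of all bright genes were lower. The chemokine Cxcl16 went the other way, higher in tumor by 1.05 (Ets2-expressing) and 1.47 (Ets2-deficient), where 6.18% and 7.61% of all bright genes were higher. Fasl passed 2-fold as the 1 ligand higher on the tumor Ets2-deficient array (1.24, with 2.23% of all bright genes higher), and its other probe set, dim, gave 0.28. Tnf, the classic ADAM17 substrate, read 8.51 and 7.98 in tumor and 8.56 and 8.74 in remodeling macrophages, and its difference was short of 2-fold in every comparison.

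Of 20 measured receptors and adhesion molecules cut by ADAMs, 0 passed 2-fold in the tumor Ets2 comparison, where 2.99% of all bright genes did. In the remodeling one 1 did, the decoy receptor Il1r2 (-1.18), where 5.17% of all bright genes were lower. The TNF receptor Tnfrsf1b (10.26 to 10.83), the efferocytosis receptor Mertk (10.07 to 10.66), Notch2 (12.42 to 12.81) and Csf1r (13.09 to 13.25) were bright on every array. Tumor minus remodeling, Il1r2 was lower (-1.67) and Trem2 (1.29), the IgE receptor Fcer2a (1.87) and E-cadherin, Cdh1 (2.48), were higher on the Ets2-expressing arrays. There 5.2% of all bright genes were lower and 6.18% higher. On the Ets2-deficient arrays Cdh1 alone was higher (3.08), where 7.61% of all bright genes were. Cdh1 was dim on both remodeling arrays. The epithelial markers were also higher in tumor, and their part in the Cdh1 value was not tested. The other Fcer2a probe set, at background on all 4 arrays, gave -0.31 on the Ets2-expressing arrays.

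Matrix targets of the ADAMTS enzymes were lower past 2-fold on the remodeling Ets2-deficient array in 9 of 16 cases, none higher. Of the 16, 11 were bright enough to count, and 5.17% of all bright genes were lower. The median difference of the 16 was -1.37, beside 0.037 for all genes. Versican, Vcan, read 7.30 and 5.86 in tumor (Ets2-deficient and Ets2-expressing) and 6.06 and 8.64 in remodeling macrophages, a remodeling difference of -2.59. The 9 also included Thbs2 (-3.02), Tfpi2 (-2.83, against a value at background), Col1a2 (-2.14), the basement membrane gene Nid1 (-2.05) and the proteoglycan Bgn (-2.02). Aggrecan, Acan, was dim on every array (4.72 to 4.87). In the tumor Ets2 comparison 2 were higher past 2-fold, Vcan (1.44) and Thbs1 (1.07), where 2.23% of all bright genes were higher. The other Vcan probe sets, dim on both tumor arrays, gave 0.24 and 0.77. Tumor minus remodeling, 6 of the 16 targets were lower on the Ets2-expressing arrays and 1 higher (Fmod, 2.29), against 5 higher and 1 lower on the Ets2-deficient arrays. Of all bright genes 5.2% were lower and 6.18% higher on the Ets2-expressing arrays, and 1.61% lower and 7.61% higher on the Ets2-deficient arrays.

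**Figure D4:**
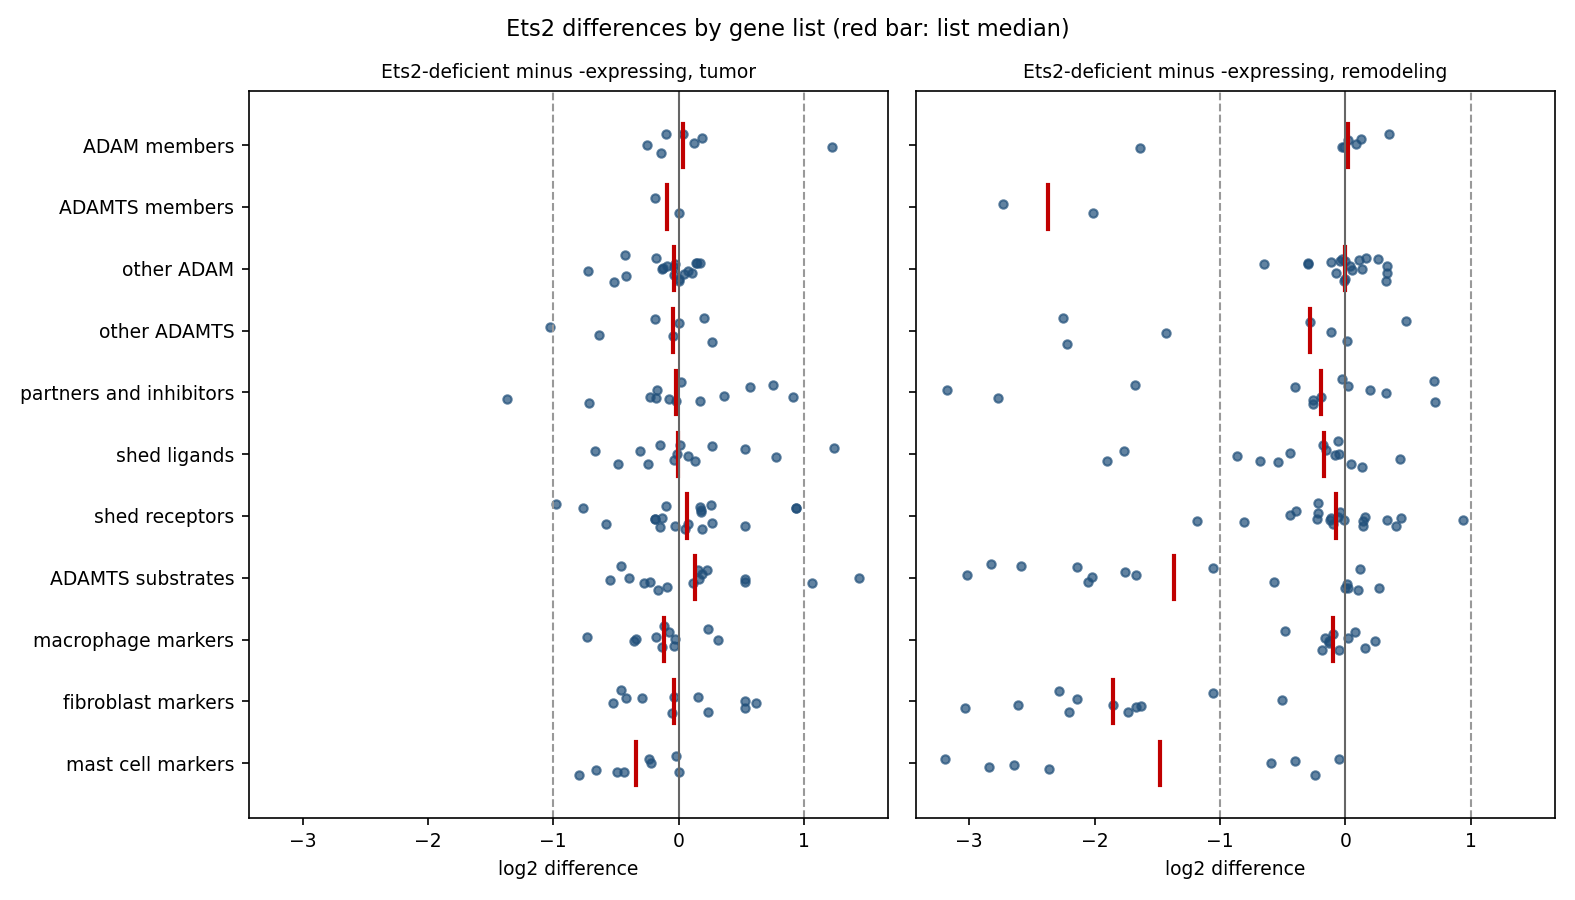
Log2 differences (x axis) of every measured gene by list (y axis) for Ets2-deficient minus Ets2-expressing arrays, tumor on the left and remodeling on the right. Each point is 1 gene, spread vertically at random for legibility, red bars are list medians and dashed lines 2-fold. ADAMTS substrates and fibroblast markers have medians of -1.37 and -1.85 in remodeling macrophages, against 0.14 and -0.03 in tumor.

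In the remodeling Ets2 comparison 5.17% of all bright genes were lower past 2-fold, a share to set beside each count of lower markers below. There fibroblast markers and some mast cell markers moved with Adam12, Adamts1 and Adamts5. Only 3 of 6 endothelial and 2 of 6 muscle and pericyte markers were bright enough to count. Those 2 lists therefore do not show whether these cell types moved. Of 11 measured fibroblast markers, 10 were lower past 2-fold on the remodeling Ets2-deficient array (median -1.85), among them Dcn (-2.61) and Pdgfra (-2.20). Col1a1, Col1a2 and Col3a1 stand in both this list and that of the ADAMTS targets. The log2 of the summed fibroblast signal was 13.5 on both tumor arrays and 12.6 and 14.4 on the remodeling arrays (Ets2-deficient and Ets2-expressing), and 9, 9, 9 and 10 of the 11 were bright on the arrays in that order. Of 8 mast cell markers 4 were bright enough to count, and all 4 were lower past 2-fold, such as Mcpt4 (-3.20) and Cpa3 (-2.65). Their list had summed signals of 8.96 and 9.47 in tumor and 8.20 and 10.6 in remodeling macrophages, while Fcer1a was at background on all 4 arrays. Among the 3 bright endothelial markers 1 was lower past 2-fold (Tek, -2.76). Of all 6, dim ones included, 3 were above 0, among them Vwf (0.96), and the list median was 0.01. Their summed signals were 8.43 and 8.49 in tumor and 8.27 and 8.98 in remodeling macrophages. Among the 2 bright muscle and pericyte markers 1 was lower (Acta2, -1.05). Of all 6, dim ones included, 3 were above 0, and the list median was 0.015. Their summed signals were 9.52 and 9.22 in tumor and 9.27 and 9.30 in remodeling macrophages. Macrophage markers had a median remodeling difference of -0.10, with 0 of 11 past 2-fold. Of 7 neutrophil markers 1 was lower past 2-fold (Cxcr2). The part of these cell markers in the ADAM12 and ADAMTS differences was not tested. Between the Ets2-deficient arrays (tumor minus remodeling) fibroblast markers had a median of 0.67 with 3 higher past 2-fold, where 7.61% of all bright genes were higher. Adam12, Adamts1 and Adamts5 differed there by -0.09, 0.84 and 0. The Adamts1 and Adamts5 values were dim on both arrays, and the other Adamts5 probe set gave 0.43. Values this low cannot show whether these genes moved with the markers, and this was not tested.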

How the data were processed

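The deposited values are log2 expression values per probe set of an Affymetrix mouse array, 1 array for each of 4 groups, as the authors submitted them. Per the submitters' processing notes the tools were GCOS and RMA; their versions and what each did are not given in the sources used here. Per the labels' protocols, about 10 ng of RNA from sorted cells was amplified by isothermal SPIA before biotin labelling. The values were used without further scaling. Genes were named through the platform annotation. Of 22690 probe sets, 20380 named exactly 1 gene and stood for 12393 genes, each read from its brightest probe set on average, and the 19 protease probe sets matched current symbols by Entrez identifier. Pearson correlations between arrays ran from 0.968 to 0.987.

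Differences were computed in Python 3.11.15 with pandas 2.3.3 and called at 2-fold with the brighter array at or above its median. The calling step was checked on simulated data, with noise below the pooled spread and changes well past 2-fold in bright genes. That check does not cover calls near 2-fold or near the array median. No test was run. With 1 array per group no comparison between groups has an error of its own, and an additive model of setting and Ets2 label, which would treat the 2 settings as repeats of each other, was not fitted. The gene list and the other lists were chosen with earlier results of these data known. Named genes are all 9 measured proteases, up to 6 genes per list and comparison past 2-fold, and the 3 nearest profiles of proteases ranging over at least 1 log2. Names outside this rule (such as Furin, Tnf or Acan) were picked for their role after their values were seen. Alternatives covered scaling (array medians, quantiles, hybridization controls, macrophage markers), the brightness filter, the fold and the choice of probe set. No protein sequences were used.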

Additional observations from a re-analysis of the deposited data

Results flagged for a closer look

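Ets2 differences lay in opposite directions in the 2 settings, each larger than the pooled spread between probe sets, for 3 of the 19 probe sets. With 1 array per group these differences between settings were not tested. The main Adam12 probe set (1421172_at) was higher by 1.22 in tumor macrophages, with both values under their array medians, and differed by -1.64 in remodeling macrophages, 2.86 apart. Neutrophil and epithelial markers were also higher on the tumor Ets2-deficient array (S100a8 by 1.49, Csn2 by 3.70), and their part was not tested. The other Adam12 probe set gave -0.27 and -2.97. For Adam15, probe set 1454206_a_at was 1.95 apart with all values dim, and 1425170_a_at was 0.889 apart and bright on 1 array. The brighter Adam15 probe sets gave -0.10 and -0.15 in tumor and -0.03 and -0.30 in remodeling macrophages.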

How the results depend on the processing

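Counts of proteases past 2-fold were recomputed under 9 alternatives. In the tumor Ets2 comparison 1 gene (Adam12) passed without the brightness filter and 0 under the others. In the remodeling Ets2 comparison the count was 0 with the 75th percentile filter, since the 3 genes lie below it on every array, and 3 otherwise. Between the Ets2-expressing arrays (tumor minus remodeling) it was 1 with that filter, 5 at 1.5-fold, 3 after centring on macrophage markers and 4 otherwise. On the Ets2-deficient arrays it was 2 after median centring, after centring on hybridization controls and at 1.5-fold, Adam8 being the gene gained, and 1 otherwise. No difference that counted as past 2-fold changed sign under the scalings or probe-set choices run. The tumor Ets2 difference of Adam12, 1.22 but too dim to count, became -0.27 by its second brightest probe set. Of 216 recomputed differences of single genes, 147 moved by less than the median spread between probe sets and 69 by more. The 147 include those of Adam8, Adam9 and Adamts1 under the probe-set choices. These genes have 1 probe set each, so those values could not move and are no check. The scalings shifted the median of all genes to between -0.31 and 0.30, and under them 4, 2, 1 and 1 of 9 genes changed sign in the 4 comparisons in the order given, all with deposited differences under 0.2. No paired analysis was possible because the groups compared share fewer than 2 replicate numbers, each having 1 array. Signal over background limits Adamts1 and Adamts5, whose lower values were dim, and Tfpi2, whose lower value was at background. It also limits Adam12 in its tumor values and in its other probe set, which were dim there. The lower value of the main Adam12 probe set in the remodeling Ets2 comparison (6.36) was bright.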
